A study of Mus musculus with 12 samples.

Results

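CBL-Y371S, a form of the ubiquitin ligase CBL that has lost its ligase activity, was set against wild-type CBL (WT-CBL) in NIH-3T3, a line of mouse embryonic fibroblasts of NIH/Swiss background, by RNA sequencing. The libraries were taken by their labels alone, 3 of the line that stably expresses CBL-Y371S and 3 of the line that stably expresses WT-CBL, 6 of the 12 in the series. The other libraries were 3 of a line with CBL-70Z, a mutant that lacks a stretch of the protein and is also without ligase activity, and 3 of a line with the empty vector (EV), which served here only to bring the tables to one scale. The methods of the study describe stable NIH-3T3 lines as made by viral infection and selected with puromycin. Both lines were grown in DMEM with DBS and were at passages 13 to 17. NIH-3T3 cells keep their own mouse Cbl, so the mutant protein was added to the endogenous one and did not replace it. Each construct is represented by 1 selected line, so that the construct and the selection of the line cannot be told apart. The labels do not say that the libraries came from separate cultures, and p-values therefore measure only the spread between these libraries.

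CBL is a RING-type ubiquitin ligase that binds activated receptor tyrosine kinases, the cell-surface receptors of growth factors, and marks them for internalization and degradation. A tyrosine in the linker helix next to the RING domain has to be phosphorylated for the ligase to be switched on, and the Y371S change replaces that tyrosine with serine. Outside its ligase part, CBL is a scaffold for adaptors such as CIN85, GRB2 and the p85 subunit of PI3K. Signals of the receptors run through RAS and the kinase ERK to early genes, to transcription factors of the ETS family and to feedback inhibitors of the Sprouty and DUSP families, and through CDC42 to the actin cytoskeleton.

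The 6 libraries held 20724468 to 26305846 reads in genes, and 15055 genes that averaged 10 normalized reads or more in either line were tested with limma. Adjusted p was below 0.05 for 5233 genes, 34.8% of those tested. Of these, 2519 genes (16.7%) were higher and 2714 (18.0%) were lower in CBL-Y371S. Most of the differences were small, with a median size of 1.18-fold among called genes, and 192 called genes differed by at least 2-fold, 79 of them higher and 113 lower in CBL-Y371S. The libraries of the lines did not overlap in 46.6% of the genes tested. The median difference over all genes was 0.00 on the log2 scale. WT-CBL replicate 3 deviated most from its line, with a median absolute log2 difference of 0.082 from the mean of the line's other libraries, against 0.042 to 0.057 for the other libraries. Without it 6355 genes were called.

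**Figure D1:**
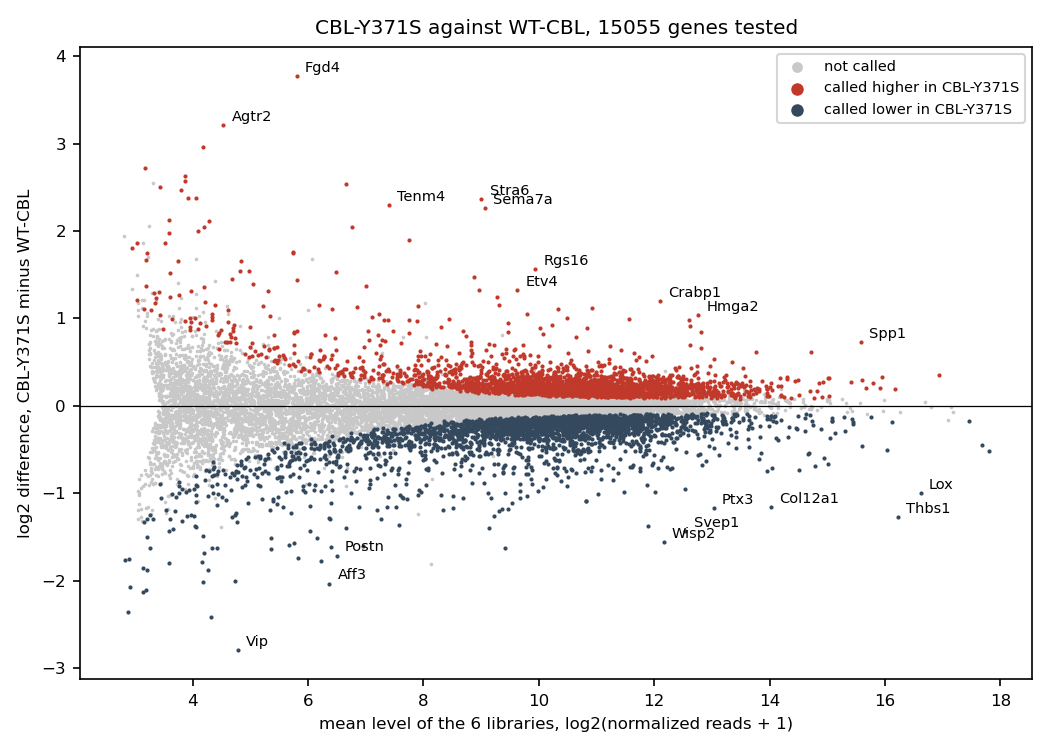
Log2 difference between CBL-Y371S and WT-CBL (vertical axis) against the mean level of the 6 libraries on the log2(normalized reads + 1) scale (horizontal axis) for the 15055 genes tested. Red points are the 2519 genes called higher in CBL-Y371S, dark points the 2714 called lower and grey points the genes not called. Fgd4 lies highest, at 3.78, and Thbs1 and Lox, among the most abundant transcripts, lie at -1.27 and -1.001.

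Both lines expressed the defining genes of fibroblasts. The 16 markers on the fibroblast list were measured in both, and their summed level was 944521 to 995046 normalized reads in CBL-Y371S and 1155243 to 1217497 in WT-CBL. Of the 16 members 3 were called higher and 12 lower in CBL-Y371S, against 16.7% and 18.0% over all genes. In bulk RNA fewer cells of a type and less RNA per cell cannot be told apart, for these as for all genes described here. The summed level of 12 blood cell markers was 164 to 328 in CBL-Y371S and 153 to 261 in WT-CBL, with 9 of 12 under a mean of 10 in both lines, and that of 12 epithelial markers was 197 to 420 in CBL-Y371S and 172 to 334 in WT-CBL. Of 10 endothelial markers 8 were under a mean of 10 in both lines, with sums of 50.4 to 74.4 in CBL-Y371S and 40.6 to 63.6 in WT-CBL. No gene of these 3 lists was called. Skeletal muscle markers summed to 790 to 841 in CBL-Y371S and 1335 to 1458 in WT-CBL, most of it from Mustn1, the 1 member called (-0.90 on the log2 scale), and Myod1, the defining factor of that lineage, was at 0 in all 6 libraries.

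Reads counted at mouse Cbl (chromosome 9, 44142976 to 44234049 of GRCm38) were higher in CBL-Y371S. The gene had 1451, 1733 and 1500.1 normalized reads in the CBL-Y371S libraries, against 822, 948 and 707 in the WT-CBL libraries. All CBL-Y371S libraries lay above all WT-CBL libraries (log2 difference 0.92 ± 0.09, adjusted p = 1.3e-05; differences here are CBL-Y371S minus WT-CBL on the log2(value + 1) scale, ± SE). Reads of the introduced CBL reach this count only as far as they align to the mouse gene, so the value does not give the amount of either protein. Cblb, the closest relative of Cbl and a ligase for receptors as well, was also called, with 867, 899.9 and 905 in CBL-Y371S and 790.5, 756 and 724 in WT-CBL (log2 difference 0.23 ± 0.05, adjusted p = 0.0031). Sh3kbp1, which encodes CIN85, had 5633, 5637 and 5582 in CBL-Y371S and 4613, 4736 and 4649 in WT-CBL (log2 difference 0.27 ± 0.03, adjusted p = 3.9e-05), again with no overlap. Over all genes tested 16.7% were called higher and 18.0% lower in CBL-Y371S. Of 29 tested genes of the CBL family, adaptors and partners, 7 were called higher and 11 lower, with a median of -0.03. The lower count was 6 without WT-CBL replicate 1 or 2 or with the trend with length and GC content taken out, and 7 without CBL-Y371S replicate 1. Once the dependence on transcript length and base composition was taken out, the counts were 8 higher and 6 lower. In the fit without that correction the lower ones included Frs2, an adaptor of FGF receptors (-0.43), and the SRC family kinase Yes1 (-0.29).

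The gene with the largest difference among those that averaged 100 normalized reads or more in the higher line was Fgd4 (chromosome 16, 16416917 to 16600549), which encodes frabin, an exchange factor that loads CDC42 with GTP. It had 99.4, 108 and 99.5 normalized reads in the CBL-Y371S libraries, against 9.64, 8.72 and 3.12 in the WT-CBL libraries. The CBL-Y371S libraries were thus close to each other, and all WT-CBL libraries were under the minimum of 10 set for the test (log2 difference 3.78 ± 0.32, adjusted p = 3.1e-06, 13.7-fold). Dock8, an exchange factor of another family that also acts on CDC42, had 868, 896 and 853 in CBL-Y371S and 359, 414 and 332 in WT-CBL (log2 difference 1.25 ± 0.07, adjusted p = 1.6e-07). Of 15 tested genes on the list of CDC42 exchange factors 3 were called higher and 4 lower, against 16.7% and 18.0% over all genes, and the median was -0.01. Ngef, an exchange factor of small GTPases that was called higher (1.32), was not on that list. Without WT-CBL replicate 3 the counts were 3 higher and 8 lower, with a median of -0.09, and 2 were lower without CBL-Y371S replicate 1, CBL-Y371S replicate 2 or WT-CBL replicate 1. Fgd6 was the third member called higher (0.34), while Dock11 (-0.45) and Plekhg4 (-0.39) were among those called lower. Fgd1, the founding member of the family of Fgd4, had 1417, 1331 and 1347 in CBL-Y371S and 1368, 1292 and 1169 in WT-CBL and was not called (adjusted p = 0.19). Cdc42 itself had 7279, 7731 and 7497 in CBL-Y371S and 7643, 7629.5 and 7944 in WT-CBL, with overlapping libraries and no call (difference -0.04 ± 0.03, adjusted p = 0.34). Among CDC42 and its effectors, 8 of 23 were called higher, such as the kinases Pak1 (0.43) and Pak4 (0.31), and 4 lower, such as Pak3 (-0.48) and Cdc42ep3 (-0.52). The lower count was 2 by DESeq2 and without CBL-Y371S replicate 2 or 3 or WT-CBL replicate 1 or 2.

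Agtr2, the type 2 receptor of angiotensin II, was the other named gene that was under a mean of 10 in WT-CBL and above 30 in CBL-Y371S. Its values were 38.8, 44.4 and 38.1 in CBL-Y371S and 5.78, 2.18 and 3.12 in WT-CBL (log2 difference 3.21 ± 0.33, adjusted p = 1.7e-05). In the opposite direction, Vip, a neuropeptide precursor, had 10.9, 6.0 and 2.79 in CBL-Y371S and 48.2, 41.4 and 49.96 in WT-CBL (log2 difference -2.80 ± 0.36, adjusted p = 1.1e-04), and Gpr133, an adhesion G protein-coupled receptor, had 6.96, 3.6 and 5.58 in CBL-Y371S and 33.7, 38.1 and 26.0 in WT-CBL (log2 difference -2.42 ± 0.31, adjusted p = 9.2e-05). In each of these genes the libraries of the lines were apart, but the lower line held few reads, so that the size of the fold rests on the pseudocount.

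Stra6, the cell-surface receptor through which cells take up retinol from its carrier protein, and Sema7a, a semaphorin anchored in the membrane by a lipid, were among the genes with the largest differences at higher levels. Stra6 had 865, 828 and 887 normalized reads in the CBL-Y371S libraries, against 176, 157 and 165 in the WT-CBL libraries (log2 difference 2.36 ± 0.07, adjusted p = 4.2e-10). Sema7a had 928, 868 and 857 normalized reads in the CBL-Y371S libraries, against 203, 187 and 161 in the WT-CBL libraries (log2 difference 2.26 ± 0.08, adjusted p = 4.0e-09). In both, every CBL-Y371S library was more than 4 times the highest WT-CBL library. Sema7a (chromosome 9, 57940112 to 57962865) and Stra6 (chromosome 9, 58063788 to 58153996) are neighbours among the tested genes of that chromosome, and they were the only such pair among the 15 highest and 15 lowest genes that averaged 100 or more in the higher line. The windows from 250 bases before to 50 after their start sites were read from RefSeq, since this neighbouring pair stands out in the comparison (build GRCm38.p6; Stra6 at chr9:58128838-58129137, plus strand; Sema7a at chr9:57939862-57940161, plus strand), 5′ to 3′. The RefSeq start of Stra6 lies within the longer span printed here for the gene, which is that of GENCODE M21. Neither window held any of 7 short motifs searched on both strands (the AP-1 motif TGANTCA, the E-box CACGTG, the TEAD motif GGAATG, the nuclear receptor motif AGGTCA, the E2F motif GGCGCC, the ETS motif CCGGAAGT and the TATA box TATAAA), which says only that those letters are not in these windows. Over the 9610 windows of all tested genes these motifs were held by 4.80%, 10.1%, 11.6% and 21.6% (AP-1, E-box, nuclear receptor and E2F motif), 12.04% (TEAD motif), 8.48% (ETS motif) and 6.74% (TATA box).
Stra6: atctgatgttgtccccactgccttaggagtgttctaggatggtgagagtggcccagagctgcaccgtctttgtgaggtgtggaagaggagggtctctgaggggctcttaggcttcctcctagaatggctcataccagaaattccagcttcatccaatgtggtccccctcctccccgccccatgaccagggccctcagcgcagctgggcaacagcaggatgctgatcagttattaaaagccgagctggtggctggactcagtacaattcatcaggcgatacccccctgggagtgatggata
Sema7a: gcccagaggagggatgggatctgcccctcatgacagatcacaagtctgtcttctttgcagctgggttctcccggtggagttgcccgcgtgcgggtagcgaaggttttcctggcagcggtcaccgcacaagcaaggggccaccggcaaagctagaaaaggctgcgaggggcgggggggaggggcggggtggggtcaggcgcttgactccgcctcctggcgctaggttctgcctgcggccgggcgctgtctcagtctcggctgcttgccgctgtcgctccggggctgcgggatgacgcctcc

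Genes of retinoid handling were called in both directions. Crabp1, a cytoplasmic binding protein of retinoic acid, had 6039, 6348 and 5978 normalized reads in the CBL-Y371S libraries, against 2557, 2570.1 and 2890.2 in the WT-CBL libraries (log2 difference 1.20 ± 0.05, adjusted p = 7.4e-09). Rarg, a nuclear receptor of retinoic acid, was higher by a small amount (0.23). Aldh1a1, an enzyme that makes retinoic acid, was at 154, 144 and 172 in CBL-Y371S and 290.2, 335 and 334 in WT-CBL (log2 difference -1.02 ± 0.09, adjusted p = 6.2e-06), and Dhrs9 (-0.71) and Cyp26b1 (-0.48), an enzyme that breaks retinoic acid down, were lower as well. Aldh1a2, another enzyme that makes retinoic acid, was called higher, with 23.8, 11.999 and 35.3 in CBL-Y371S and 20.2, 3.27 and 1.04 in WT-CBL (log2 difference 1.996 ± 0.69, adjusted p = 0.041), but its libraries overlapped. It was not called by edgeR or without CBL-Y371S replicate 1 or 3 or WT-CBL replicate 2 or 3 (without WT-CBL replicate 3, 1.25, adjusted p = 0.087). Over the list 5 of 17 tested members were called higher and 6 lower, with a median of -0.01, and 3 were higher without CBL-Y371S replicate 3. Of all genes tested 16.7% were called higher and 18.0% lower, to be set beside this list and the next. Among axon guidance ligands and receptors the counts were 10 higher and 7 lower of 33, and 9 and 11 without WT-CBL replicate 3, when the median moved to -0.02, against 0.05 with all libraries. Beside Sema7a, the higher ones included Tenm4, a large transmembrane protein of the teneurin family, with 290.2, 265 and 283 in CBL-Y371S and 59.8, 61.0 and 47.9 in WT-CBL (log2 difference 2.30 ± 0.12, adjusted p = 3.9e-08), and the semaphorin receptor Plxna4 (1.15). The semaphorins Sema3b (-0.78) and Sema3f (-0.63) and their co-receptor Nrp1 (-0.74) were lower in CBL-Y371S.

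Other genes with large differences in this direction came from several functions. Rgs16, which shortens signals of G protein-coupled receptors, had 1511, 1434 and 1460.1 normalized reads in the CBL-Y371S libraries, against 504, 487 and 496 in the WT-CBL libraries (log2 difference 1.56 ± 0.05, adjusted p = 4.2e-10). Upp1, uridine phosphorylase, had 150.1, 168 and 206 in CBL-Y371S and 33.7, 42.5 and 48.9 in WT-CBL (log2 difference 2.04 ± 0.16, adjusted p = 2.0e-06), and Cytip, a binding partner of the ARF exchange factor cytohesin, had 320.0, 341 and 358 in CBL-Y371S and 92.5, 83.9 and 93.7 in WT-CBL (log2 difference 1.90 ± 0.09, adjusted p = 2.4e-08). Cd200, a membrane glycoprotein (1.53), Gpr149, an orphan receptor (1.47), Ngef, an exchange factor of small GTPases that acts downstream of Eph receptors (1.32), and Slc14a1, a urea transporter (2.54), completed the group. All 3 CBL-Y371S libraries were above all 3 WT-CBL libraries in each of them, which the rule that chose these genes required. Hmga2, a chromatin protein of embryonic cells and tumours, was at a higher level and differed by close to 2-fold, with 9285, 9358 and 9462 in CBL-Y371S and 4609, 4512 and 4515 in WT-CBL (log2 difference 1.04 ± 0.03, adjusted p = 4.2e-10). Its list, oncofetal and imprinted growth genes, did not share this direction. Of 17 tested members 2 were called higher and 6 lower, with a median of -0.17, against 16.7% and 18.0% over all genes.

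**Figure D2:**
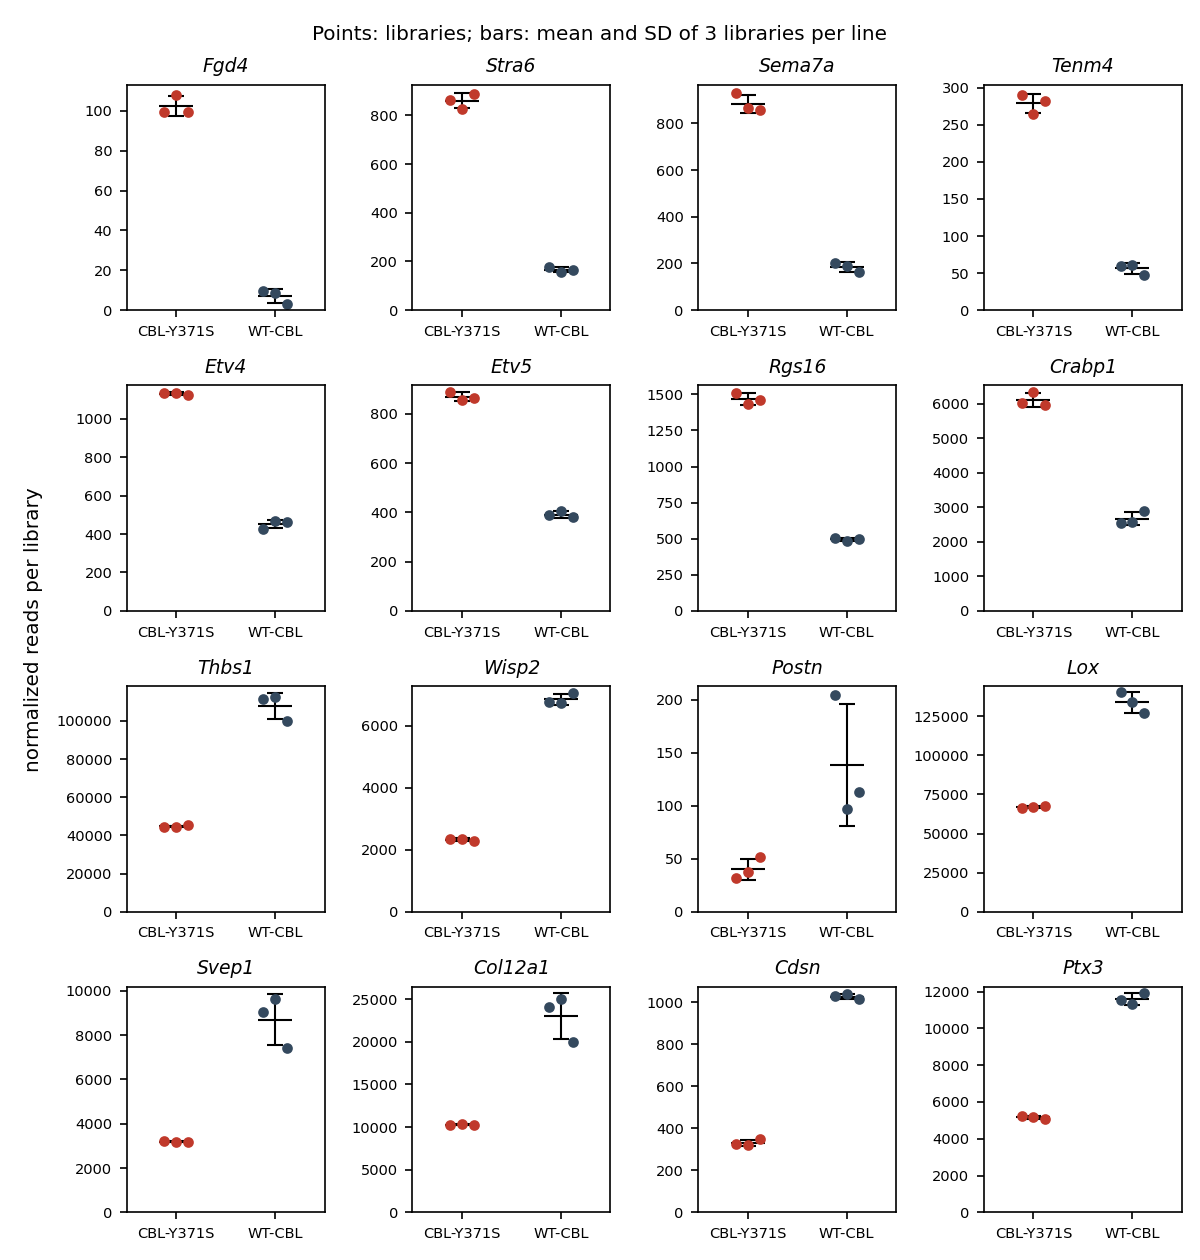
Normalized reads in each library (points) with the mean and SD of the 3 libraries per line (bars) for 16 named genes, CBL-Y371S on the left and WT-CBL on the right of each panel; every axis starts at 0. In all 16 genes the libraries of the lines are apart, largely a condition of the rules by which genes were named. Postn varied more than 2-fold among the WT-CBL libraries, with 31.8, 37.2 and 51.1 in CBL-Y371S and 204, 97.0 and 113 in WT-CBL.

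Most listed target and feedback genes of the ERK pathway were called higher in CBL-Y371S. The list, as all lists here, was written with earlier results of these data known, and no list was tested. Its summed level overlapped, at 97280.5 to 99647.4 normalized reads in CBL-Y371S and 98140.9 to 99525.8 in WT-CBL. Of 21 tested members 18 were called higher and 2 lower, with a median difference of 0.43, against 16.7% and 18.0% called higher and lower over all genes and a median of 0.00. The ETS factors of the PEA3 group were all higher, and Etv4 and Etv5 had the largest differences of the list. Etv4 had 1134, 1136 and 1122 normalized reads in the CBL-Y371S libraries, against 426, 469.8 and 461 in the WT-CBL libraries (log2 difference 1.32 ± 0.05, adjusted p = 7.4e-09), Etv5 had 890.4, 854 and 865 in CBL-Y371S and 388, 405 and 381 in WT-CBL (log2 difference 1.15 ± 0.05, adjusted p = 1.9e-08), and Etv1 had 261, 286 and 277 in CBL-Y371S and 167, 145 and 151 in WT-CBL (log2 difference 0.83 ± 0.09, adjusted p = 1.8e-05). In all 3 factors the libraries of the lines were apart. Spry4, a feedback inhibitor of receptor tyrosine kinase signalling, had 444, 475 and 460.3 in CBL-Y371S and 230.4, 268 and 199 in WT-CBL (log2 difference 0.99 ± 0.10, adjusted p = 1.0e-05), and its relatives Spred3 (0.59) and Spry2 (0.43) were higher by less. The phosphatases that switch off ERK followed the same direction, with Dusp4 at 0.64, Dusp5 at 0.70 and Dusp6 at 0.61. Dusp6 had 1729, 1790.2 and 1746 in CBL-Y371S and 1249, 1104 and 1106 in WT-CBL. Ccnd1, the cyclin through which growth factors drive entry into the cell cycle, was at 7853, 7637 and 7937 in CBL-Y371S and 5004, 4843 and 4666 in WT-CBL (log2 difference 0.69 ± 0.04, adjusted p = 4.0e-08), and Fosl1, an AP-1 subunit, at 3452, 3352 and 3279 in CBL-Y371S and 2112, 2164 and 2186 in WT-CBL (log2 difference 0.64 ± 0.04, adjusted p = 8.7e-08). The exceptions among called members were Epha4 (-0.72), a receptor of ephrins, and Il1rl1 (-0.19, and -0.08 with no call once the trend with length and GC content was taken out), the receptor of interleukin 33.

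Immediate early genes, which the same pathway induces within minutes of stimulation, were called in both directions. Of 22 tested members 4 were called higher and 4 lower, near the 16.7% and 18.0% over all genes. The other 14 were not called, and the median was -0.08. With the trend with length and GC content taken out 4 were higher and 7 lower. Egr1, their best-known member, had 1350.5, 1401 and 1293 in CBL-Y371S and 1318, 1306 and 1249 in WT-CBL and was not called (log2 difference 0.06 ± 0.04, adjusted p = 0.31). Ier2 (0.32), Egr3 (0.33) and Jun (0.20) were called higher, whereas Btg2 (-0.30), Fosl2 (-0.25) and the phosphatase Dusp1 (-0.25) were called lower. Erf, a repressor of the ETS family, differed by 0.17 ± 0.04 (adjusted p = 0.0026).

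Genes of DNA replication were called higher nearly throughout, by small amounts. Of 44 tested members 39 were called higher and none was called lower, against 16.7% and 18.0% over all genes. The differences ran from 0.04 to 0.76, with a median of 0.29. Mcm5, a subunit of the replicative helicase, had 5745, 5744 and 5625 normalized reads in the CBL-Y371S libraries, against 4475, 4482 and 4428 in the WT-CBL libraries (log2 difference 0.35 ± 0.03, adjusted p = 4.0e-06). Uhrf1, which maintains DNA methylation at replication forks, had 2762, 2852 and 2792 in CBL-Y371S and 1887, 2003 and 1928 in WT-CBL (log2 difference 0.53 ± 0.04, adjusted p = 6.8e-07), and the E2F factors E2f2 (0.76) and E2f8 (0.51) stood at the upper end. Mitosis genes showed 31 of 42 called higher and none lower, with a median of 0.17, led by the transcription factor Mybl2 (0.51), the separase gene Espl1 (0.35) and Birc5, a subunit of the chromosomal passenger complex (0.32). For 15 housekeeping genes the median was 0.13, with 7 called higher and 0 lower. Among D cyclins, their kinases and the inhibitors of these, 6 of 13 were called higher and 5 lower, with 3 higher without CBL-Y371S replicate 1 and 2 without WT-CBL replicate 1. Ccnd1 and the inhibitor Cdkn2d (0.23) were higher, and the inhibitor Cdkn1b was lower, with 2025, 2027 and 2029 in CBL-Y371S and 2880.5, 2661 and 2572 in WT-CBL (log2 difference -0.41 ± 0.04, adjusted p = 1.9e-05).

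**Figure D3:**
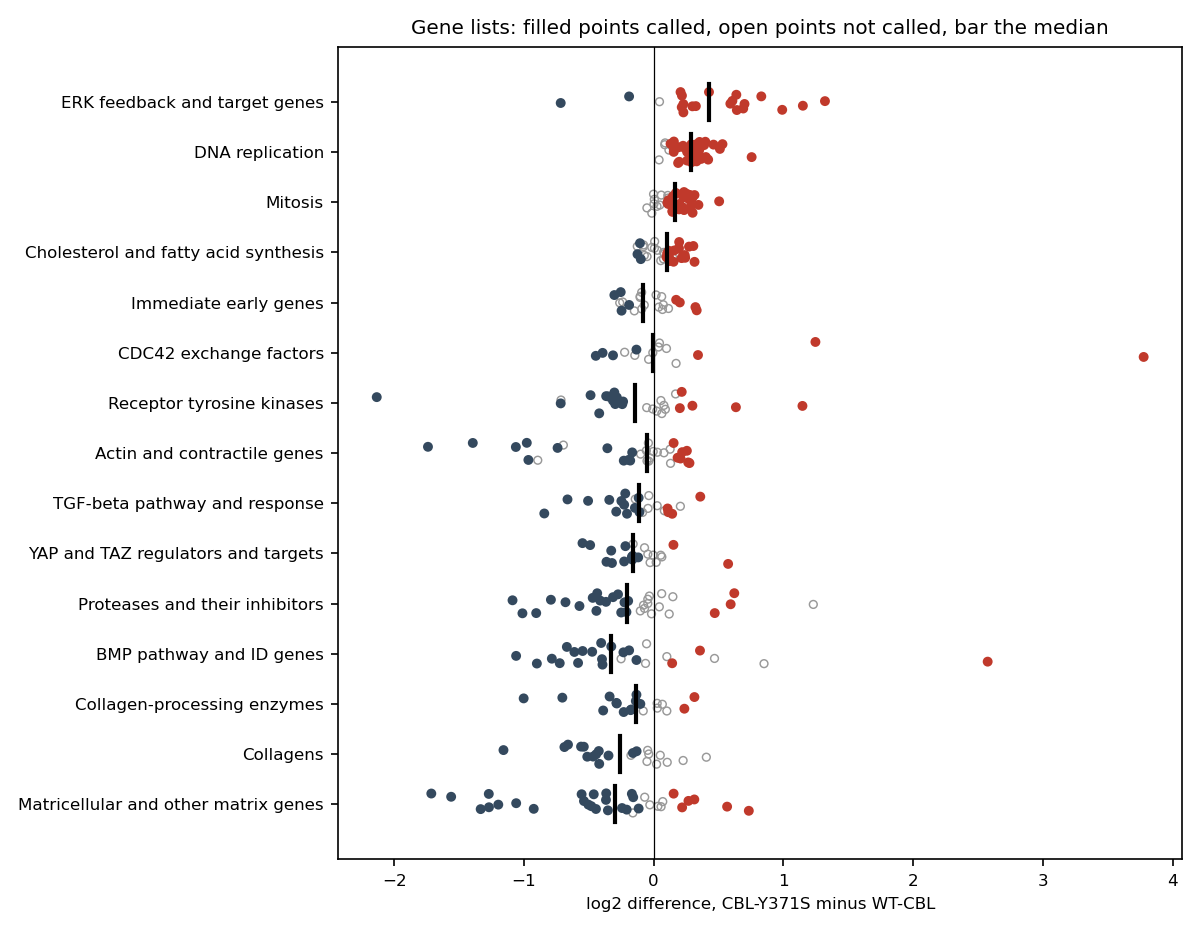
Log2 difference between CBL-Y371S and WT-CBL of each tested member of 15 gene lists (points; filled where called, red for higher and dark for lower in CBL-Y371S, open where not called), with the median of each list as a bar. The medians of the ERK list and the replication list lie to the right of 0, at 0.43 and 0.29, and those of the matrix list and the collagens to the left, at -0.30 and -0.26.

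The transcripts that lost most reads in CBL-Y371S encode proteins of the extracellular matrix or enzymes that act on it. Thbs1, thrombospondin 1, which binds matrix and activates latent TGF-beta, had 44604, 44316 and 45196 normalized reads in the CBL-Y371S libraries, against 111360.0, 112352 and 99924 in the WT-CBL libraries (log2 difference -1.27 ± 0.04, adjusted p = 3.2e-09). Lox, the enzyme that cross-links collagen and elastin, had 66136, 67018 and 67448 normalized reads in the CBL-Y371S libraries, against 140672, 133910.0 and 127349 in the WT-CBL libraries (log2 difference -1.001 ± 0.04, adjusted p = 9.2e-09). These genes, with Col1a1, Col1a2 and Sparc, were the 5 named genes that lost most normalized reads in CBL-Y371S. Col1a1, which encodes a chain of collagen I, was at 177660.0 in CBL-Y371S and 241401 in WT-CBL on average (log2 difference -0.44 ± 0.04, adjusted p = 1.5e-05), Col1a2, its partner chain, at 188146 in CBL-Y371S and 267847 in WT-CBL (log2 difference -0.51 ± 0.05, adjusted p = 5.9e-06), and Sparc, a collagen-binding glycoprotein, at 55817 in CBL-Y371S and 79088 in WT-CBL (log2 difference -0.50 ± 0.03, adjusted p = 3.9e-07).

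Of 34 matricellular and other matrix genes 22 were called lower and 6 higher, with a median of -0.30, against 18.0% and 16.7% over all genes. Postn, periostin, which binds integrins and collagen, had 31.8, 37.2 and 51.1 normalized reads in the CBL-Y371S libraries, against 204, 97.0 and 113 in the WT-CBL libraries (log2 difference -1.71 ± 0.25, adjusted p = 2.4e-04). Its WT-CBL libraries varied more than 2-fold among themselves, but all of them were above the CBL-Y371S libraries. Wisp2, also named Ccn5, had 2329, 2358 and 2276 normalized reads in the CBL-Y371S libraries, against 6757, 6744 and 7041 in the WT-CBL libraries (log2 difference -1.56 ± 0.03, adjusted p = 6.8e-11), with little spread in either line. The basement membrane protein Nid2 (-1.06) and the small proteoglycan Ogn (-0.92) were lower as well. The members called higher were led by Spp1, osteopontin, with 59191, 64335 and 60253 in CBL-Y371S and 36163, 36501 and 37773 in WT-CBL (log2 difference 0.73 ± 0.04, adjusted p = 5.4e-08), Sparcl1, a relative of Sparc (0.57), and the laminin chain Lamb1 (0.31). Fn1, fibronectin, had 134277, 129206 and 131177 in CBL-Y371S and 153426, 162787 and 127033 in WT-CBL and was not called (log2 difference -0.16, adjusted p = 0.1). Without WT-CBL replicate 3 Fn1 was called lower (-0.26, adjusted p = 4.7e-06), as it was with the trend with length and GC content taken out (-0.13, adjusted p = 0.039). Tnc, tenascin C, was not called (0.07). Svep1, a large adhesion protein of the matrix outside that list, had 3223, 3170.0 and 3197 in CBL-Y371S and 9035, 9634 and 7399.9 in WT-CBL (log2 difference -1.43 ± 0.07, adjusted p = 3.9e-08).

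Spp1 and Postn, matrix genes that moved in opposite directions, were among 6 of the 21 matrix genes with a promoter window in RefSeq that hold the letters TATAAA on either strand, 28.6%, against 6.74% of 9610 windows over all genes tested. The motif is printed in capitals, and the sequences run 5′ to 3′ from 250 bases before to 50 after the start (GRCm38.p6; Spp1 at chr5:104434861-104435160, plus strand; Postn at chr3:54360857-54361156, plus strand). In Postn it begins 26 bases before the start, the usual place of a TATA box, and in Spp1 211 bases before it. A match is a description of the sequence and not a site in use. Matches anywhere in the window were counted. The count was among those of 7 motifs in several gene sets, and no difference was tested. Other shares also departed from those over all genes. The TEAD motif GGAATG was in 4 of 12 windows of the 15 genes highest in CBL-Y371S, 33.3%, against 12.04%.
Spp1: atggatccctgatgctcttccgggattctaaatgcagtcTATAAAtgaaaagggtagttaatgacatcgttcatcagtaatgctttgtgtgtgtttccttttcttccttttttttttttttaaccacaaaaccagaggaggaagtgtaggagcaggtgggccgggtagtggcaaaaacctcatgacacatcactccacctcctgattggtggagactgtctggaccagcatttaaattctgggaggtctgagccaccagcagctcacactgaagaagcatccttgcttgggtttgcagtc
Postn: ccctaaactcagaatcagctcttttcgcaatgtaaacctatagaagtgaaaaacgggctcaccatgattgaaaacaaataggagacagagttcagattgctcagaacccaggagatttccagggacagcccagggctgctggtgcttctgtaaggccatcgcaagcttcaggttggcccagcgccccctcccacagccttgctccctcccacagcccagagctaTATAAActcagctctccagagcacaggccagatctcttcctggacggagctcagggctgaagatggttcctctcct

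No collagen gene was called higher. Of 22 tested collagens 13 were called lower, with a median of -0.26. The shares over all genes tested, 18.0% lower and 16.7% higher, are the background for the lists of this paragraph. Col12a1, a collagen that sits on the surface of fibrils, had 10249, 10345 and 10224 normalized reads in the CBL-Y371S libraries, against 24014, 25024 and 20009.9 in the WT-CBL libraries (log2 difference -1.16 ± 0.06, adjusted p = 8.2e-08), and the fibrillar Col5a2 (-0.69) and Col5a1 (-0.54) were lower by less. Col3a1 differed by -0.13, and the basement membrane collagen Col4a1 (-0.04) and the beaded-filament collagen Col6a1 (-0.05) were not called. Among collagen-processing enzymes 12 of 19 were lower and 2 higher (1 without CBL-Y371S replicate 1 or WT-CBL replicate 1). They included, beside Lox, the procollagen protease Adamts2 (-0.70) and the prolyl hydroxylase P4ha3 (-0.39). Loxl3, a relative of Lox, differed in the other direction (0.31). Of the proteases and their inhibitors 17 of 32 were lower, such as the aggrecanases Adamts5, with 1136, 1145 and 1176 in CBL-Y371S and 2562, 2490.5 and 2302 in WT-CBL (log2 difference -1.09 ± 0.05, adjusted p = 1.0e-08), and Adamts1 (-0.90), and the serine protease Prss23 (-1.01). The 3 members called higher were the lysosomal protease Ctsl, with 32389, 33099 and 32171 in CBL-Y371S and 20702, 20729 and 22045 in WT-CBL (log2 difference 0.62 ± 0.03, adjusted p = 9.2e-08), the gelatinase Mmp9 (0.59) and Plaur, the receptor of urokinase (0.47).

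Transcripts of BMP signalling were mostly lower. The 25 tested members held 16 called lower and 3 called higher (1 without CBL-Y371S replicate 3 or by DESeq2), with a median of -0.33. Over all genes tested 18.0% were called lower and 16.7% higher, the background for the lists of this paragraph. The 4 ID genes, inhibitors of basic helix-loop-helix factors and targets of BMP receptors, were all lower. Id4 had 120.2, 148 and 121 normalized reads in the CBL-Y371S libraries, against 278, 254 and 279 in the WT-CBL libraries (log2 difference -1.06 ± 0.10, adjusted p = 8.0e-06), and Id2, Id3 and Id1 differed by -0.55, -0.40 and -0.23. Smad9, a transducer of BMP receptors, had 95.4, 86.4 and 97.6 in CBL-Y371S and 164, 189.6 and 171 in WT-CBL (log2 difference -0.90 ± 0.10, adjusted p = 4.6e-05). Bmp2 was called higher, but its values were 16.9, 14.4 and 34.4 in CBL-Y371S and 13.5, 2.18 and 0 in WT-CBL, with WT-CBL replicate 1 just under the lowest CBL-Y371S library (log2 difference 2.58 ± 0.75, adjusted p = 0.019). Of the TGF-beta pathway and response 12 of 23 were lower and 4 higher, of which 1 or 2 were called without any single CBL-Y371S library or without WT-CBL replicate 1. The response gene Tgfbi (-0.84) and the ligand Tgfb2 (-0.66) were lower, and the ligand Tgfb1 was higher (0.36). YAP and TAZ regulators and targets showed 11 lower and 2 higher of 21, with Amotl2 at -0.55 and Crim1 at -0.49, while the partner factor Tead4 was higher (0.57).

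Among actin and contractile genes, 11 of 31 were lower and 7 higher, with a median of -0.05, against 18.0% and 16.7% over all genes. Actg2, the actin of visceral smooth muscle, had 24.8, 20.4 and 29.8 in CBL-Y371S and 109, 82.8 and 67.7 in WT-CBL (log2 difference -1.74 ± 0.21, adjusted p = 5.2e-05), Cnn1, calponin, had 25.8, 26.4 and 26.0 in CBL-Y371S and 56.9, 49.0 and 61.4 in WT-CBL (log2 difference -1.06 ± 0.17, adjusted p = 5.1e-04), and Ablim1, an actin-binding LIM protein, had 301, 301 and 324 in CBL-Y371S and 863, 846 and 734 in WT-CBL (log2 difference -1.39 ± 0.07, adjusted p = 3.9e-08). Actb, the general cytoplasmic actin, was higher by a small amount (0.26), as was Vim, the intermediate filament protein of mesenchymal cells (0.35). Integrin genes included differences in both directions, with Itga6, a laminin receptor chain, at 1142, 1119 and 1313 in CBL-Y371S and 649.7, 544 and 528 in WT-CBL (log2 difference 1.06 ± 0.08, adjusted p = 1.5e-06) and Itga11, a collagen receptor chain, at 238, 226 and 207 in CBL-Y371S and 496, 543 and 473 in WT-CBL (log2 difference -1.17 ± 0.08, adjusted p = 4.3e-07).

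Receptor tyrosine kinases, the substrates of CBL as proteins, were more often lower than higher in their transcripts. Of 26 tested receptors 12 were called lower and 5 higher, with a median of -0.14, against 18.0% and 16.7% over all genes. With the trend with length and GC content taken out 14 receptors were lower and 7 higher. Pdgfra, the most abundant of the called ones, had 22613, 22686 and 22765 in CBL-Y371S and 27876, 28267 and 26700.0 in WT-CBL (log2 difference -0.28 ± 0.03, adjusted p = 4.2e-05), and Egfr had 647, 590.3 and 581 in CBL-Y371S and 759.6, 791 and 693 in WT-CBL (log2 difference -0.30 ± 0.06, adjusted p = 0.0028). Epha4 (-0.72), Fgfr2 (-0.49) and the collagen receptor Ddr1 (-0.42) differed more. Flt1, a VEGF receptor, was higher (log2 difference 1.15 ± 0.25, adjusted p = 0.0036), and Fgfr1 was higher by 0.20. The ligands of such receptors were divided, with 9 of 28 higher and 8 lower. Btc, betacellulin, a ligand of EGFR, had 64.6, 87.6 and 90.2 in CBL-Y371S and 28.0, 13.1 and 32.3 in WT-CBL (log2 difference 1.76 ± 0.28, adjusted p = 4.9e-04), and another one, Areg, differed by 0.73. Igf1 had 46.7, 56.4 and 53.9 in CBL-Y371S and 127, 98.1 and 118 in WT-CBL (log2 difference -1.11 ± 0.14, adjusted p = 9.0e-05), Igf2 had 1872, 1941 and 1900.0 in CBL-Y371S and 3896, 3886 and 3567 in WT-CBL (log2 difference -0.99 ± 0.04, adjusted p = 1.0e-08), and Hgf, the ligand of MET, differed by -0.61. Reads of Igf2 and of its antisense transcript Igf2os (-0.70) cannot be told apart by a library that does not mark the strand.

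Among genes that averaged 100 or more in WT-CBL, the lowest differences came from genes of varied function. Aff3, a nuclear protein related to transcription elongation factors, had 41.7, 22.8 and 31.6 normalized reads in the CBL-Y371S libraries, against 119, 138 and 135 in the WT-CBL libraries (log2 difference -2.03 ± 0.19, adjusted p = 9.0e-06). Kcnj16, a potassium channel subunit, had 37.8, 40.8 and 22.3 in CBL-Y371S and 107, 112 and 123 in WT-CBL (log2 difference -1.78 ± 0.20, adjusted p = 3.9e-05), Cdsn, an adhesion protein first known from skin, had 327, 322 and 348 in CBL-Y371S and 1029, 1039 and 1018 in WT-CBL (log2 difference -1.63 ± 0.05, adjusted p = 1.4e-09), and Aoc3, an amine oxidase of the cell surface, had 38.8, 44.4 and 39.1 in CBL-Y371S and 115, 135 and 130.1 in WT-CBL (log2 difference -1.61 ± 0.13, adjusted p = 2.7e-06). The libraries of the lines were apart in each of these genes, which the rule that chose them required. Rasl11a, a small GTPase of the RAS family, was the most abundant of the group after Wisp2 and Svep1, with 2085, 2120.2 and 2109 in CBL-Y371S and 5246, 5395 and 5732 in WT-CBL (log2 difference -1.37 ± 0.04, adjusted p = 4.2e-10), and its relative Rasl11b was lower too (-0.98). Ccr7, a chemokine receptor, had 76.5, 109 and 79.0 in CBL-Y371S and 201, 206 and 241 in WT-CBL (log2 difference -1.30 ± 0.14, adjusted p = 2.2e-05). Tspan33 (-1.61), the metalloprotease Adamts16 (-1.51), Clip4 (-1.36) and Sytl2 (-1.29) lay in the same range. Of secreted factors of inflammation, Ptx3, a soluble pattern recognition molecule, had 5234, 5173 and 5078 in CBL-Y371S and 11549.8, 11300.4 and 11917 in WT-CBL (log2 difference -1.17 ± 0.03, adjusted p = 4.2e-10), Cxcl12 differed by -0.72, and Il6 by -0.72. In the chemokine and cytokine list as a whole 14 of 36 were lower and 8 higher (4 by DESeq2, 5 without WT-CBL replicate 2), among them Lif (0.61). Over all genes tested 18.0% were lower and 16.7% higher.

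The levels in CBL-70Z show which of these differences set CBL-Y371S apart from the other ligase-inactive line. Over the same 15055 genes 7865 (52.2%) were called between CBL-Y371S and CBL-70Z. Both comparisons use the CBL-Y371S libraries, so they are not independent. With the trend with transcript length and base composition removed, 6213 genes were called here, and 294 genes called in both fits turned direction. Of the 192 genes called at 2-fold or more against WT-CBL, 93 were not called against CBL-70Z, 83 were called on the same side and 16 on the other side. Stra6 had 865, 828 and 887 in CBL-Y371S, against 873, 846 and 815 in CBL-70Z (log2 difference 0.03 ± 0.04, adjusted p = 0.66), and Etv5 had 890.4, 854 and 865 in CBL-Y371S, against 845, 852 and 826 in CBL-70Z (log2 difference 0.05 ± 0.04, adjusted p = 0.34), neither of them called. Fgd4 was lower in CBL-Y371S than in CBL-70Z, with 99.4, 108 and 99.5 in CBL-Y371S, against 188, 244 and 184 in CBL-70Z (log2 difference -0.99 ± 0.11, adjusted p = 1.6e-06), and so was Tenm4, with 290.2, 265 and 283 in CBL-Y371S, against 424, 479 and 421 in CBL-70Z (log2 difference -0.66 ± 0.07, adjusted p = 5.3e-07). For these genes WT-CBL was lowest and CBL-Y371S lay between the other lines. Etv4 was higher in CBL-Y371S, with 1134, 1136 and 1122 in CBL-Y371S, against 876, 829 and 875 in CBL-70Z (log2 difference 0.39 ± 0.04, adjusted p = 2.6e-07), as was Ngef, with 714, 696 and 713 in CBL-Y371S, against 467, 461 and 499 in CBL-70Z (log2 difference 0.57 ± 0.05, adjusted p = 5.5e-08).

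Among the genes lower than in WT-CBL, Thbs1 had 44604, 44316 and 45196 in CBL-Y371S, against 66854, 67823 and 66686 in CBL-70Z (log2 difference -0.59 ± 0.02, adjusted p = 8.3e-13) and Svep1 had 3223, 3170.0 and 3197 in CBL-Y371S, against 5166, 5108 and 5014 in CBL-70Z (log2 difference -0.67 ± 0.02, adjusted p = 3.1e-12), so that CBL-Y371S was the lowest of the 3 lines in both. Lox (log2 difference -0.65 ± 0.02, adjusted p = 2.7e-13) and Col12a1 (log2 difference -0.90 ± 0.02, adjusted p = 2.2e-14) followed the same order. Igf2 had 1872, 1941 and 1900.0 in CBL-Y371S, against 3963, 4034 and 3888 in CBL-70Z (log2 difference -1.06 ± 0.03, adjusted p = 9.9e-14). Ptx3 (log2 difference 0.05 ± 0.02, adjusted p = 0.077) and Prss23 (log2 difference 0.07 ± 0.04, adjusted p = 0.099) were not called between these lines. Slc6a12, a transporter of betaine and GABA, had 46.7, 63.6 and 54.9 in CBL-Y371S, against 5.25, 5.55 and 6.46 in CBL-70Z (log2 difference 3.05 ± 0.25, adjusted p = 3.1e-08). It differed from WT-CBL in the other direction (log2 difference -1.40 ± 0.13, adjusted p = 8.4e-06), which placed CBL-Y371S between both other lines. Id4 was also in between, with 120.2, 148 and 121 in CBL-Y371S, against 92.5, 82.2 and 75.4 in CBL-70Z (log2 difference 0.63 ± 0.13, adjusted p = 4.5e-04).

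**Figure D4:**
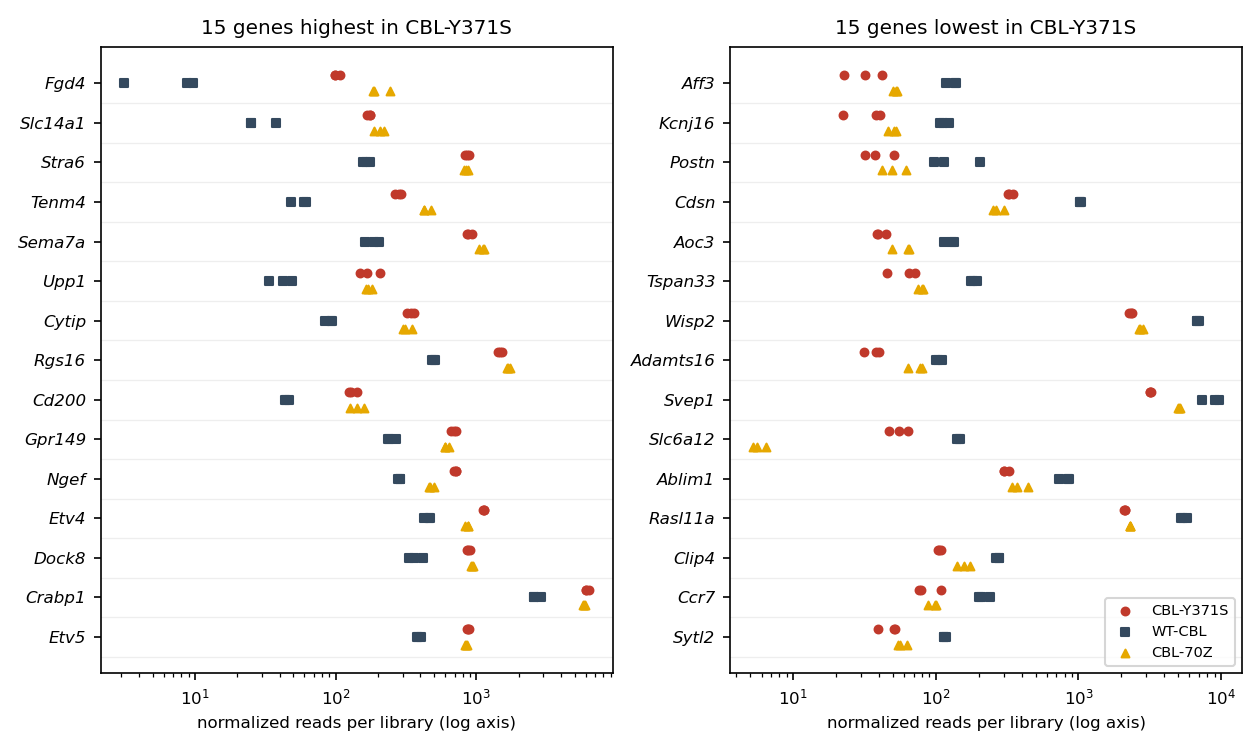
Normalized reads per library (horizontal log axis) in CBL-Y371S (circles), WT-CBL (squares) and CBL-70Z (triangles) for the 15 genes with the highest and the 15 with the lowest differences between CBL-Y371S and WT-CBL among called genes that averaged 100 or more in the higher line and had libraries apart. Of these 30 genes, 13 were called between CBL-Y371S and CBL-70Z on the same side as against WT-CBL, 8 on the other side and 9 were not called.

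The difference moved with the length and base composition of the transcripts. Over 11270 genes that averaged 100 normalized reads or more in either line, Spearman's rho across genes, which are not independent, was -0.28 with exon length and 0.39 with the GC content of the transcript. The median difference was 0.08 in genes with the shortest exons (57 to 2292 bases) and -0.08 in those with the longest (7655 to 123179 bases), where 245 genes were called higher and 837 lower. When a spline on length and GC content was removed, 4854 of 14891 genes were called, 2756 higher and 2098 lower in CBL-Y371S. With this trend removed, the ERK list had 18 members higher and 1 lower, the replication list 42 and 0, the matrix list 5 and 22, and the collagens 0 and 13. Thbs1 was then at -1.25, Col12a1 at -1.06, Stra6 at 2.32 and Etv4 at 1.25.

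**Figure D5:**
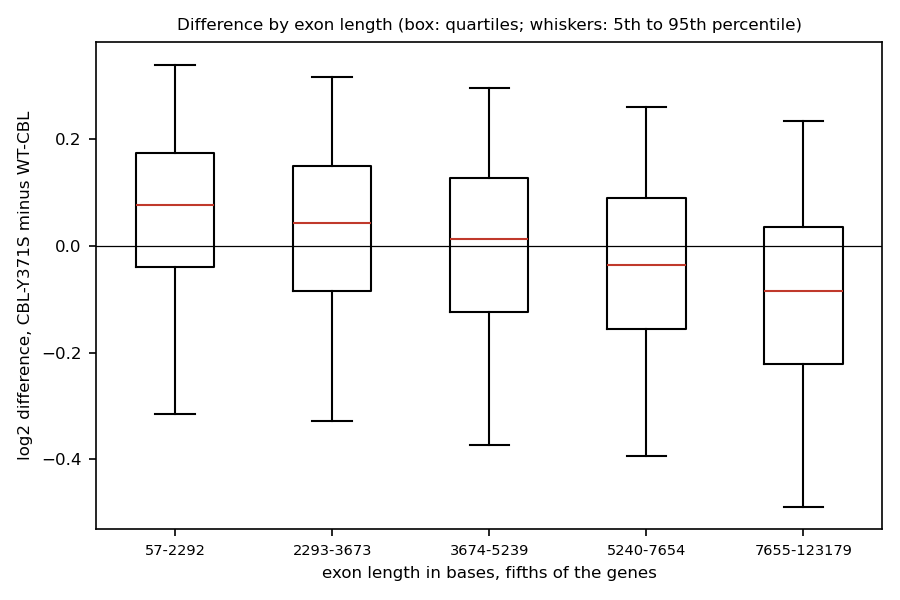
Log2 difference between CBL-Y371S and WT-CBL (vertical axis) in 5 equal bins of 11270 genes by exon length in bases (horizontal axis), as boxes of the quartiles with the median in red and whiskers at the 5th and 95th percentile. The medians descend with length, 0.08 in the shortest bin and -0.08 in the longest.

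Chromosome medians ran from -0.07 on chromosome 13 to 0.05 on chromosome 19 among autosomes, and the X chromosome had -0.05. Among 600 runs of 20 neighbouring genes the medians lay between -0.27 and 0.21 (SD 0.084), and 8 runs had a median of 0.2 or more in size. With the trend with length and GC content removed, the runs at these ends had medians of -0.15 and 0.14. Of the 30 genes plotted for all 3 lines, Stra6 and Sema7a adjoined each other, Slc14a1 had Siglec15, a receptor of sialic acids, nearby (1.19, with 23.8, 24.0 and 25.1 in CBL-Y371S and 16.4, 6.54 and 9.37 in WT-CBL), and Clip4 had Fam179a (-1.26).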

How the data were processed

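RNA of 4 NIH-3T3 lines, 3 libraries each, was sequenced by the authors after TruSeq v2 preparation, which does not mark strand. The submitters' processing notes name TopHat2 2.0.13, Bowtie2 2.2.4.0, HTSeq 0.9.1 for counts per gene, and the build GRCm38. The strand setting and annotation release are not given in the sources used here. The deposited values are a signal, read counts divided by DESeq2 size factors by the authors, in 1 table per CBL line with the EV libraries. Fold changes and p-values of the authors' comparisons with EV stand in the same tables and were not used. Values multiplied by the size factor came out whole in 100% of cases (tolerance 1e-06), so read totals are known and edgeR and DESeq2 could be run as alternatives.

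The tables were brought to the scale of the CBL-Y371S table by their shared EV libraries (factors 0.996 for WT-CBL and 1.02 for CBL-70Z). Genes that averaged 10 or more in CBL-Y371S or WT-CBL were tested on log2(value + 1) with limma 3.58.1 in R 4.3.3 (eBayes with trend, two-sided, Benjamini-Hochberg over all genes, called at adjusted p under 0.05), and the fold of low genes is understated on this scale. The procedure was also run on simulated data. The simulation had the same dispersion in all libraries, few changed genes and no trend with length. These data differ in each respect, so it gives no error rate for them. Alternatives were edgeR 4.0.16, DESeq2 1.42.0, other scalings, pseudocounts and filters, a fit of all libraries, a replicate block, removal of a spline on exon length and GC content (GENCODE M21), and leaving out each library.

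Named genes were the 15 highest and 15 lowest called genes that averaged 100 or more in the higher line and libraries apart, up to 5 per direction under a mean of 10 in one line and at least 30 in the other, up to 3 per direction of each gene list with a mean of at least 30 and libraries apart, the 5 per direction with the largest change in normalized reads, and Cbl, Cblb, Sh3kbp1, Fgd4, Egr1, Erf and Cdc42. Other members of lists were named after their values were seen. The comparison, the rule and the 46 gene lists were chosen with earlier results of these data known.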

Additional observations from a re-analysis of the deposited data

How the results depend on the processing

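The count of genes called between CBL-Y371S and WT-CBL, 5233, was 5281 with edgeR, 4140 with DESeq2, 6115 with all 12 libraries in the fit and 4854 with the length and GC trend removed, and no gene called in both fits changed sign. Leaving out 1 library gave 3884 to 6355, the highest without WT-CBL replicate 3. With at least 2-fold required, 192 genes were called against WT-CBL and 203 against CBL-70Z. Between CBL-Y371S and CBL-70Z the 7865 calls became 7872 with edgeR, 6429 with DESeq2 and 6213 with the trend removed, where 294 genes called in both fits had the opposite sign, and leaving out 1 library gave 7209 to 7610. Deviations of same-numbered CBL-Y371S and WT-CBL libraries correlated at 0.05, -0.08 and -0.09, and those of other-numbered ones at -0.11 to 0.14. Replicate numbers thus showed no pairing between these lines. Pairing with the CBL-70Z libraries was not checked. The replicate block called 4728 genes against WT-CBL and 7931 against CBL-70Z. With 3 libraries of 1 line per construct, the line itself is not replicated, and genes such as Bmp2, Vip and Agtr2 rest on few reads in the lower line. Of 162 genes named, 12 changed their call under some alternative: Aldh1a2, Areg, Bmp2, Cdkn2d, Col3a1, Egr3, Erf, Fgd6 and Il1rl1 lost it, and Col4a1, Col6a1 and Fn1 gained one. Il1rl1 lost it when the trend was removed (-0.08, adjusted p = 0.065 by limma). Of 1656 counts of list members called under the alternatives, 131 moved by over 1.5 times. None of the 162 changed direction past the threshold.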

Other observations

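Of 34 genes of sterol and fatty acid synthesis 17 were called higher and 3 lower (median 0.10), against 16.7% and 18.0% over all genes. With the trend with length and GC content removed 21 were higher and 0 lower, and without WT-CBL replicate 3 the counts were 20 and 5. Without any other single library they were 11 to 14 and 0 to 2. Lists of other functions were shifted upward as well. Of 15 housekeeping genes 7 were called higher and 0 lower (median 0.13). Of 56 cytosolic ribosomal protein genes 16 were higher and 0 lower (median 0.15), and of 73 nuclear-encoded respiratory chain subunits 23 and 0 (median 0.11). The higher counts of these 2 lists depended on the fit. Without WT-CBL replicate 3 they were 38 and 47 (medians 0.21 and 0.16). With the trend removed they were 12 and 19 (medians 0.11 and 0.08). A median of the size seen for sterol and fatty acid synthesis was thus not particular to that list. Mvd, an enzyme of the mevalonate pathway, had 4442, 4365 and 4221 in CBL-Y371S and 3481, 3428 and 3557 in WT-CBL (log2 difference 0.32 ± 0.03, adjusted p = 2.6e-05), and Fasn, fatty acid synthase, had 22792, 21646 and 22149.7 in CBL-Y371S and 18652, 19418 and 15956 in WT-CBL (log2 difference 0.31 ± 0.06, adjusted p = 0.0016). In the glycolysis and hypoxia list 15 of 34 were called higher, such as Gpi1 (0.33) and Pfkl (0.32), enzymes of the pathway itself, and 5 lower (8 with all 12 libraries in the fit). The lower ones included Pfkfb3, which makes an activator of glycolysis, with 421, 386 and 405 in CBL-Y371S and 917, 957 and 877 in WT-CBL (log2 difference -1.18 ± 0.06, adjusted p = 2.6e-08), and the hypoxia factor Hif1a (-0.24). No gene of the interferon response list was called higher (1 without WT-CBL replicate 3 and 1 with the trend removed) and 9 of 30 were called lower, among them Isg15 (-0.56) and Bst2 (-0.36).

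Of 26 Wnt pathway genes 6 were called higher and 6 lower (10 higher without WT-CBL replicate 1). Both counts were little above the shares over all genes tested, 16.7% higher and 18.0% lower. Rnf43, a ligase that removes Wnt receptors, had 140.1, 104 and 136 in CBL-Y371S and 269, 286 and 218 in WT-CBL (log2 difference -1.02 ± 0.13, adjusted p = 9.2e-05), while the inhibitor Dkk2 (0.65) and the ligand Wnt5a (0.48) were higher. Of 12 RGS and other G-protein regulators 5 were higher (3 without CBL-Y371S replicate 1 or 2) and 1 was lower, Rgs4, with 106, 118 and 113 in CBL-Y371S and 251, 270.3 and 236 in WT-CBL (log2 difference -1.16 ± 0.09, adjusted p = 2.0e-06), the opposite direction of Rgs16 (1.56). Of 38 tested homeobox and patterning genes 5 were called higher and 10 lower, with a median of -0.07. Foxc2 had the highest difference of that list (0.80).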
